A study of Mus musculus with 12 samples.

Results

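The genes described here carry an interferon signal from the cell surface to the nucleus and then shut it down: 4 receptor chains (Ifngr1, Ifngr2, Ifnar1, Ifnar2), 3 Janus kinases (Jak1, Jak2, Tyk2) and 3 feedback inhibitors (Socs1, Socs3, Usp18). They were taken by name, with no measured value in the rule but with earlier results of these data known, as the rows of the count table whose Ensembl identifiers carry these mouse symbols. All 10 symbols matched 1 row each out of 42687 rows, and all 10 had enough counts to be among the 13261 genes tested. None of the 10 passed the main test in any of the 5 comparisons made, where 0 to 4.74% of all genes tested passed. A count of 0 among 10 is near that share. Some alternative analyses called up to 2 of the 10 in a comparison. Some genes that act after them in the same pathway passed the main test.

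Interferon gamma is bound by a receptor of IFNGR1, the ligand-binding chain, and IFNGR2, and type I interferons are bound by IFNAR2 together with IFNAR1. Each chain holds a kinase on its cytoplasmic tail: JAK1 on IFNGR1 and IFNAR2, JAK2 on IFNGR2, and TYK2 on IFNAR1. The kinases phosphorylate STAT proteins, which enter the nucleus and switch on target genes, among them the inhibitors. SOCS1 blocks the kinases directly, SOCS3 acts mainly on receptors of the interleukin-6 type, and USP18 both removes the ubiquitin-like protein ISG15 from its targets and sits on IFNAR2, where it hinders JAK1.

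The libraries came from DC2.4, an immortalised mouse dendritic cell line of labelled wild-type genotype, in 4 groups of 3. Cells received PBS, the vehicle, or extracellular vesicles (membrane particles shed by cells) of mouse T cells: 15 µg/mL from activated T cells (ATEV), 30 µg/mL from non-activated T cells (NTEV), or 15 µg/mL of ATEV pretreated with Baseline-ZERO DNase (DNase-treated ATEV). A second figure in the labels, an amount of vesicle DNA, stands beside the NTEV dose and may be meant for ATEV as well; the amount of vesicles itself differed between ATEV and NTEV, so vesicle kind and vesicle dose cannot be told apart. Cells were exposed overnight, collected and seeded again, and this was done 3 times, which the labels do not explain further. Whether replicate libraries stem from independent cultures is not stated, so the p-values speak to the scatter among these libraries alone, and that scatter may be technical. In bulk RNA, fewer cells making a transcript and less of it per cell cannot be told apart.

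Library totals ran from 19.4 to 30.4 M counts (1 M = 1e6). A principal component analysis of all tested genes put 34.9% of the variance on its first axis. There, PBS scores ran from -41.8 to -14.6 and 2 vesicle libraries fell among them, replicate 1 of NTEV (-21.5) and replicate 1 of DNase-treated ATEV (-30.4), while the other 7 vesicle libraries lay from 4.41 to 41.7. Of 12 dendritic cell markers, 6 were tested: Itgax, Ptprc, Irf8, Cd74, Zbtb46 and Batf3. Clec9a had 0 counts and Flt3 had 6 counts over all libraries. H2-Aa, H2-Ab1, Xcr1 and Itgae were also scarce, with at most 17 counts in any library. The 12 summed to 468.5 to 528 CPM (counts per 1e6 normalised counts) in PBS, 583 to 695 with ATEV, 477 to 571 with NTEV and 538 to 678 with DNase-treated ATEV. With ATEV against PBS 2 of the 6 tested rose (Itgax and Irf8), beside 3.32% of all genes called higher. All 8 macrophage markers were tested, and their summed level was 3422 to 4055 CPM in PBS, 4733 to 7610 with ATEV, 4892 to 5577 with NTEV and 3297 to 3543 with DNase-treated ATEV. Much of that difference was Lyz2 alone, at 1452 to 1885 CPM in PBS, 2468 to 5413 with ATEV, 2529 to 3170 with NTEV and 1198 to 1449 with DNase-treated ATEV. With ATEV against PBS 3 of the 8 rose (Lyz2, Itgam and Fcgr1), beside the same 3.32% of all genes. T cell RNA was near the floor for the defining markers: 4 of 15 (Cd3e, Cd8a, Trbc1, Trbc2) had 0 counts in all 12 libraries. The 15 summed to 60.1 to 103 CPM in PBS, 44.7 to 63.8 with ATEV, 36.2 to 53.9 with NTEV and 55.9 to 62.4 with DNase-treated ATEV, most of it from Cd28 and Lck. Of the 3 tested, 1 (Cd28) fell with ATEV against PBS, beside 1.42% of all genes called lower. With NTEV against PBS 1 dendritic and 1 macrophage marker rose (1.7% of all genes called higher) and Cd28 fell (0.611% lower). The part of these shifts in the values below was not tested.

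Promoter sequences are shown for 4 members: the 2 SOCS genes, which are known transcriptional targets of this pathway, and Jak2 and Tyk2, which had the lowest adjusted p of the kinases in each comparison with PBS. RefSeq windows on build GRCm38.p6, from 250 bases before to 50 after the start of the gene, were on hand for 9 of the 10 members, all but Usp18. They were searched on both strands for GAAA repeated after any 2 bases (GAAA, NN, GAAA), the core of the element bound by the type I interferon factor complex, and for TTCNNNGAA, the element bound by STAT dimers; capitals mark the matches. The Socs1 window (chr16:10785487-10785786, minus strand) held 2 overlapping matches of the repeat, GAAAGAGAAA and GAAACCGAAA, which together reach from position -83 to position -68 counted from the start of the gene. The Socs3 window (chr11:117969317-117969616, minus strand) held 1 match of TTCNNNGAA, TTCTTAGAA, from -154 to -146. Neither pattern occurs in the windows of Jak2 (chr19:29251553-29251852, plus strand) and Tyk2 (chr9:21131226-21131525, minus strand), nor in those of Ifngr1, Ifngr2 and Jak1, while Ifnar1 and Ifnar2 each held 1 TTCNNNGAA. Among 32851 mouse promoter windows of the same length, 3.44% held the GAAA repeat and 8.3% held TTCNNNGAA, so a match alone is not rare.
Socs1 promoter: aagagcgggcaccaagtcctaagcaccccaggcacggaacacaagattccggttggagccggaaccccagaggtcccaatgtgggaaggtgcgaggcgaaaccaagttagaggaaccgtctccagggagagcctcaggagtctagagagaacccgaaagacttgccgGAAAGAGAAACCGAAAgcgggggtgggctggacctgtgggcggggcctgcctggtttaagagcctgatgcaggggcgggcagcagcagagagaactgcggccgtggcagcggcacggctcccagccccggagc
Socs3 promoter: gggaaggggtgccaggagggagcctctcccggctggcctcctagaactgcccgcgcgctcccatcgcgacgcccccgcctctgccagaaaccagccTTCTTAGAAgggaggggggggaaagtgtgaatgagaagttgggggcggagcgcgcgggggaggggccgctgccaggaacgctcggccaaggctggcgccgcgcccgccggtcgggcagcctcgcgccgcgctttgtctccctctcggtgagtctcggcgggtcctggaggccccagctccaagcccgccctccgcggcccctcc
Jak2 promoter: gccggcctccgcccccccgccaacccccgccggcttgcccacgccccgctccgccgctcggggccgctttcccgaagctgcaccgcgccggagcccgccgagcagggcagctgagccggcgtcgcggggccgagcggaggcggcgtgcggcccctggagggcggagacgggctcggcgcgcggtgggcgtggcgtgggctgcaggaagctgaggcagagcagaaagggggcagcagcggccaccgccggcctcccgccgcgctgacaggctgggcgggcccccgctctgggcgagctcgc
Tyk2 promoter: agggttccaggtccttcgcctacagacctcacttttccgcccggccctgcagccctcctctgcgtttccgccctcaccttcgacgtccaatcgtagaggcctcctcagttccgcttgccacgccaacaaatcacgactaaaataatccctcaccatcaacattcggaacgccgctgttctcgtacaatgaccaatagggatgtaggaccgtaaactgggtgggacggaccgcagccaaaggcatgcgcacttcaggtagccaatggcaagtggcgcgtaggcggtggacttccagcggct

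Without vesicles, DC2.4 cells held mRNA of the whole receptor and kinase set and little of 2 of the inhibitors. Per length (CPM per kb of exon sequence), Jak1 was the most abundant member in PBS at 29.9 ± 2.97 (SD, n = 3). Socs3 at 20.7 ± 3.68, Ifngr1 at 19.0 ± 3.21 and Ifngr2 at 17.4 ± 1.01 followed, and neighbours among these 3 overlapped over their libraries. Ifnar1 at 11.8 ± 0.873 and Ifnar2 at 10.7 ± 1.51 overlapped each other and lay below both interferon gamma receptor chains. Tyk2 at 6.53 ± 0.529 and Jak2 at 5.88 ± 0.184 again overlapped. Socs1 at 0.800 ± 0.0430 and Usp18 at 0.215 ± 0.0292 lay far below, apart from each other and from the rest. With the longest transcript as the length the values of Jak1 (44.1), Ifngr1 (25.5), Ifnar1 (17.9), Tyk2 (9.28) and Usp18 (0.339) moved by more than their SD, and Ifnar1 then stood beside Ifngr2 (17.7), so the gap between the receptors depends on the length used.

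The receptor chains differed little from PBS in the vesicle groups. Ifngr1 stood at 47.6, 49.9 and 64.4 CPM in the PBS libraries, 48.8, 44.2 and 51.8 with ATEV, 40.4, 49.8 and 39.8 with NTEV and 50.3, 60.8 and 59.0 with DNase-treated ATEV. Ranges of all vesicle groups overlapped PBS, and the NTEV group held the 2 lowest libraries. All NTEV libraries lay below all DNase-treated libraries, but these groups were not compared by a test. The log2 fold change of Ifngr1 was -0.32 ± 0.14 (SE) for NTEV against PBS, which did not pass (adjusted p = 0.256, edgeR's quasi-likelihood test with Benjamini-Hochberg adjustment). Ifngr2, the signalling partner, stood at 63.2, 63.7 and 70.0 CPM in PBS, 78.0, 72.3 and 62.3 with ATEV, 65.7, 78.4 and 71.9 with NTEV and 58.1, 71.7 and 65.6 with DNase-treated ATEV, ranges that overlapped throughout.

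Within a library, the ratio of Ifngr1 to Ifngr2 counts needs no scaling between libraries. This ratio was 0.753, 0.783 and 0.920 in PBS and 0.865, 0.848 and 0.899 with DNase-treated ATEV, against 0.615, 0.635 and 0.554 with NTEV. All 3 NTEV libraries thus lay below all PBS and all DNase-treated libraries. With ATEV it was 0.626, 0.611 and 0.831, where replicates 1 and 2 lay within the NTEV range and replicate 3 within that of PBS. These ratios, and those of other gene pairs below, were chosen after the values were seen and carry no test.

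Ifnar1 stood at 69.1, 65.5 and 75.8 CPM in PBS, 81.7, 88.5 and 75.0 with ATEV, 68.2, 92.2 and 75.7 with NTEV and 68.2, 87.7 and 71.6 with DNase-treated ATEV. Ifnar2 stood at 33.9, 31.6 and 41.2 CPM in PBS, 50.8, 43.95 and 34.1 with ATEV, 35.6, 48.45 and 38.3 with NTEV and 34.7, 40.4 and 37.1 with DNase-treated ATEV. For both chains each vesicle group overlapped PBS. Against PBS, the 95% interval of the log2 fold change with ATEV ran from -0.08 to 0.52 for Ifnar1 and from -0.09 to 0.63 for Ifnar2, which leaves a doubling outside both intervals. The 2 chains kept similar proportions, with Ifnar1 to Ifnar2 count ratios of 1.98 ± 0.128 in PBS, 1.94 ± 0.302 with ATEV, 1.93 ± 0.0397 with NTEV and 2.02 ± 0.131 with DNase-treated ATEV (SD, n = 3).

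**Figure D1:**
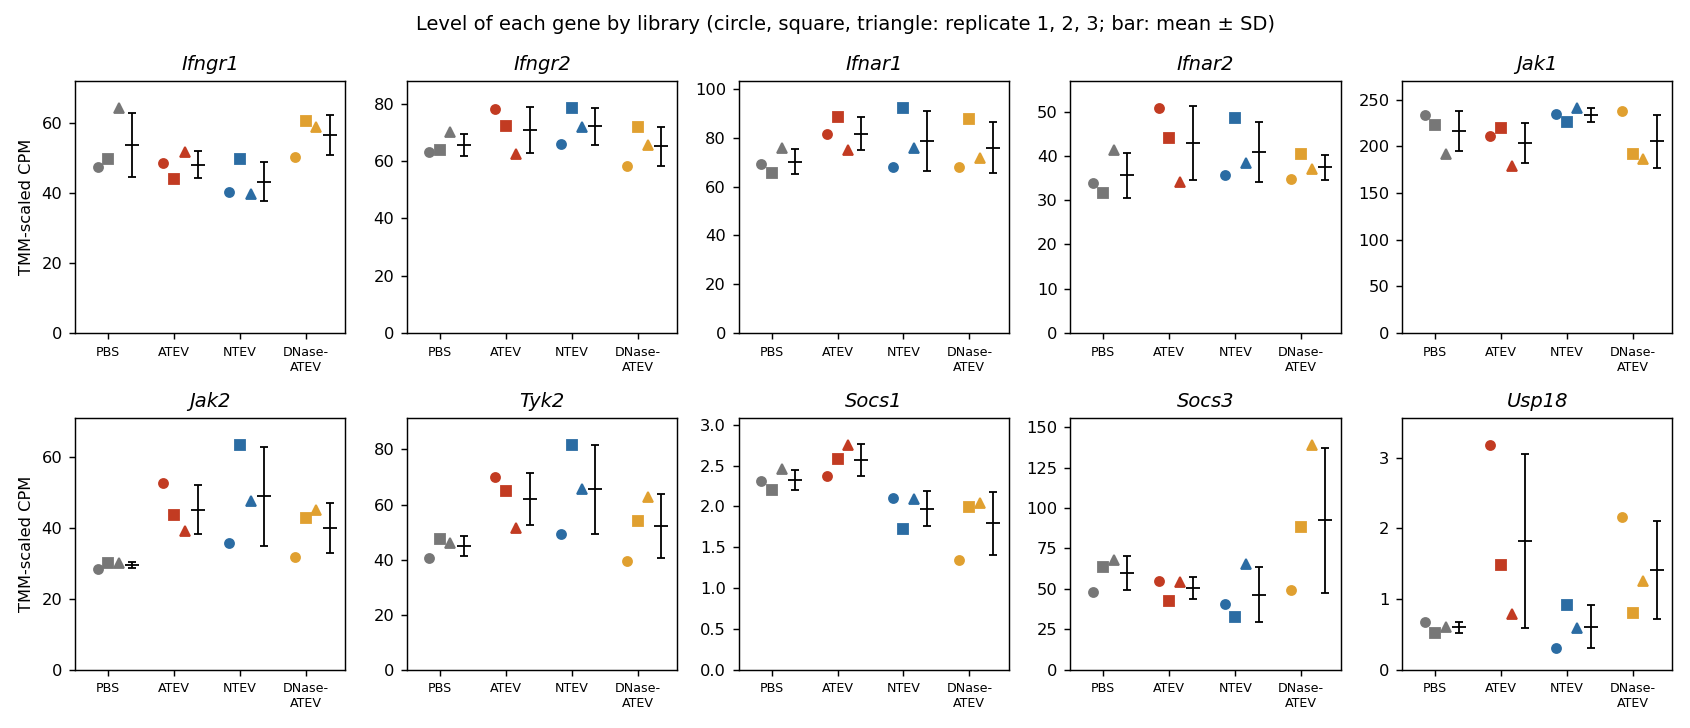
Normalised level (TMM-scaled CPM, linear axes from 0) of the 10 genes in each of the 12 libraries, by group; symbols give the replicate number and the black bar the mean ± SD of 3 libraries. Jak2 in PBS spans 28.5 to 30.2 CPM and lies below every vesicle library, whereas most receptor panels overlap between groups.

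None of the 3 kinases passed in any comparison. Jak2 stood above PBS in every vesicle library and Tyk2 in most, while Jak1 overlapped PBS in each vesicle group. Jak1, the kinase shared by both receptors, stood at 233, 223 and 192 CPM in PBS, 211, 220 and 179 with ATEV, 234, 226 and 241 with NTEV and 237, 192 and 186 with DNase-treated ATEV. All NTEV libraries of Jak1 lay above all ATEV libraries, by a log2 difference of 0.20 that did not pass (ATEV against NTEV -0.20 ± 0.13, adjusted p = 0.524, edgeR). Jak2, the kinase of IFNGR2, stood at 28.5, 30.1 and 30.2 CPM in PBS, 52.8, 43.7 and 39.1 with ATEV, 35.75, 63.5 and 47.6 with NTEV and 31.9, 42.9 and 45.0 with DNase-treated ATEV. All 9 vesicle libraries lay above all 3 PBS libraries. Group by group, 16.3% of all genes lay above PBS without overlap with ATEV, 12.8% with NTEV and 7.69% with DNase-treated ATEV. The share that did so in all vesicle groups at once was not computed.

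For Jak2 the log2 fold change was 0.61 ± 0.20 with ATEV (SE; 1.53-fold, adjusted p = 0.0860), 0.73 ± 0.20 with NTEV (1.65-fold, adjusted p = 0.0745) and 0.43 ± 0.20 with DNase-treated ATEV (1.35-fold, adjusted p = 0.824). None of these passed in edgeR's quasi-likelihood test. Over the alternatives its adjusted p ran from 0.0233 to 0.233 with ATEV and from 0.00421 to 0.298 with NTEV. DESeq2 called both differences (adjusted p = 0.0398 with ATEV and 0.0149 with NTEV), beside 1538 and 861 of all genes. NTEV against PBS was also called by edgeR without NTEV replicate 1 (log2 fold change 0.92, adjusted p = 0.00957), beside 1685 of all genes.

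Tyk2, the kinase of IFNAR1, stood at 40.7, 47.6 and 46.15 CPM in PBS, 69.95, 64.8 and 51.5 with ATEV, 49.3, 81.7 and 65.7 with NTEV and 39.6, 54.2 and 62.6 with DNase-treated ATEV. The ATEV and NTEV libraries all lay above PBS, and DNase-treated replicate 1 lay below it. The log2 fold change was 0.47 ± 0.20 with ATEV (SE, adjusted p = 0.155, edgeR), 0.55 ± 0.20 with NTEV (adjusted p = 0.160) and 0.22 ± 0.20 with DNase-treated ATEV (adjusted p = 0.837). Without NTEV replicate 1, Tyk2 was called by edgeR for NTEV against PBS (0.73, adjusted p = 0.0292), beside 1685 of all genes.

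Relative to Jak1 in the same library, Jak2 counts were 0.122, 0.135 and 0.157 in PBS and 0.250, 0.199 and 0.218 with ATEV, without overlap. With NTEV the ratio was 0.153, 0.281 and 0.198, and with DNase-treated ATEV 0.134, 0.223 and 0.242. Replicate 1 of both these groups thus lay inside the PBS range and the other 4 libraries above it. Tyk2 relative to Jak1 was 0.174, 0.213 and 0.240 in PBS, 0.331, 0.295 and 0.287 with ATEV, 0.210, 0.361 and 0.273 with NTEV and 0.167, 0.282 and 0.337 with DNase-treated ATEV. Here NTEV replicate 1 lay inside the PBS range, DNase-treated replicate 1 just below it and every other vesicle library above it. The 2 libraries that did not lie above PBS in these ratios are the 2 that lay within PBS on the first principal component of all genes, and NTEV replicate 2, the highest in both ratios, was also the highest on that component (41.7). The component was computed from all tested genes, these included, and its part in the kinase values was not tested. The kinase ratios were chosen after the values were seen and carry no test. They rest on the same counts as the levels above and add no separate evidence.

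**Figure D2:**
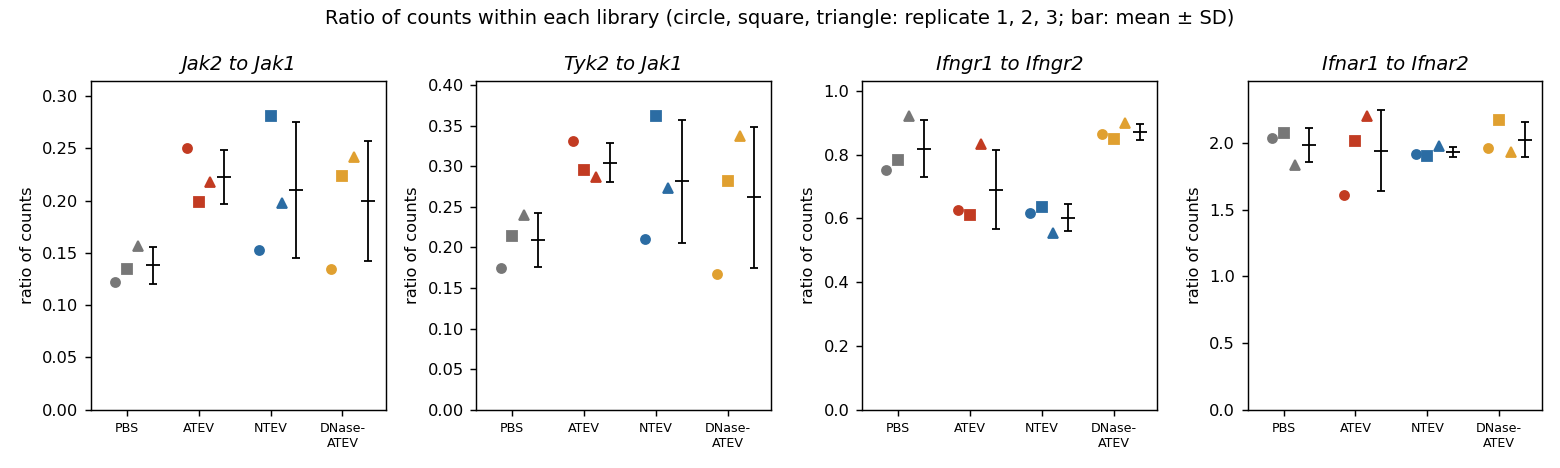
Ratio of raw counts of 2 genes within each library (linear axes from 0), for 2 kinase pairs and the 2 receptor pairs, by group; symbols give the replicate number and the black bar the mean ± SD of 3 libraries. Jak2 to Jak1 in ATEV (0.199 to 0.250) lies above PBS (0.122 to 0.157), and Ifngr1 to Ifngr2 in NTEV (0.554 to 0.635) lies below PBS (0.753 to 0.920). The pairs were chosen after the values were seen and carry no test.

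The feedback inhibitors differed from one another. Socs1 was measured from 28 to 61 counts per library and stood at 2.32, 2.21 and 2.46 CPM in PBS, 2.37, 2.58 and 2.76 with ATEV, 2.10, 1.72 and 2.09 with NTEV and 1.35, 1.99 and 2.04 with DNase-treated ATEV. The ATEV libraries overlapped PBS, while all NTEV and DNase-treated libraries lay below both. The log2 fold change of ATEV against PBS was 0.14 ± 0.23 (SE, adjusted p = 0.718, edgeR), with a 95% interval from -0.35 to 0.63. ATEV against DNase-treated ATEV gave 0.51 ± 0.23 (adjusted p = 0.319) and ATEV against NTEV 0.38 ± 0.23 (adjusted p = 0.485), neither of which passed.

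Socs3 stood at 47.9, 63.6 and 68.1 CPM in PBS, 55.1, 42.8 and 54.2 with ATEV and 40.8, 32.75 and 65.5 with NTEV, ranges that overlapped. With DNase-treated ATEV it was spread over 49.5, 88.2 and 139 CPM, with replicate 1 inside the PBS range and replicates 2 and 3 above it. ATEV against DNase-treated ATEV gave -0.86 ± 0.32 on the log2 scale (SE, edgeR, adjusted p = 0.228). Leaving out replicate 3 of the DNase-treated group moved it to -0.44, and leaving out replicate 1 of that group to -1.16; neither was called.

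Usp18 had few counts, 9 to 74 per library. It stood at 0.679, 0.516 and 0.603 CPM in PBS, 3.19, 1.48 and 0.795 with ATEV, 0.311, 0.921 and 0.597 with NTEV and 2.17, 0.805 and 1.25 with DNase-treated ATEV. After scaling, all ATEV and all DNase-treated libraries lay above PBS, beside 16.3% and 7.69% of all genes, and NTEV overlapped it. In raw counts, ATEV replicate 3 (15) and DNase-treated replicate 2 (17) lay within the PBS range of 11 to 17. The log2 fold change was 1.60 ± 0.53 with ATEV (SE, 3.04-fold, adjusted p = 0.0915, edgeR), 1.22 ± 0.54 with DNase-treated ATEV (adjusted p = 0.816) and 0.0037 ± 0.59 with NTEV (adjusted p = 0.998). ATEV replicate 1 carried much of the first value, which was 0.92 without it, and ATEV against DNase-treated ATEV turned from 0.39 to -0.30 without that library. DNase-treated ATEV against PBS stood at 0.77 without replicate 1 of the DNase-treated group. Over the alternatives the adjusted p of ATEV against PBS ran from 0.0175 to 0.276, and DESeq2 called it (adjusted p = 0.0428), beside 1538 of all genes.

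Read against all genes, the members did not stand out in the counts of calls. With ATEV against PBS, edgeR called 0 of 10 members, where it called 4.74% of all genes tested. Limma-voom called 0 members (527 of all genes) and DESeq2 2, Jak2 and Usp18 (1538 of all genes). At an unadjusted p under 0.05 there were 3 members (Jak2, Tyk2, Usp18), beside 26.8% of all genes, and the same 3 stood above PBS without overlap, beside 16.3% of all genes higher without overlap and 16.8% lower. The median log2 fold change of the members was 0.18, and of all genes 0.03. With NTEV against PBS, edgeR called 0 members (2.31% of all genes), limma-voom 0 (209 of all genes) and DESeq2 1, Jak2 (861 of all genes). Here 3 members had an unadjusted p under 0.05 (Ifngr1, Jak2, Tyk2; 19.1% of all genes), 2 stood above PBS without overlap (12.8%) and Socs1 below it (11.1%), with medians of 0.12 for the members and -0.0028 for all genes. Without NTEV replicate 1 the count of members called was 2, Jak2 and Tyk2, beside 1685 of all genes.

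With DNase-treated ATEV against PBS, edgeR called no gene at all (percent called 0), limma-voom none and DESeq2 38 genes, none of them a member. Jak2 and Usp18 had an unadjusted p under 0.05, beside 5.96% of all genes, and both stood above PBS without overlap (7.69%), while Socs1 stood below (5.68%). The members' median was 0.09 and that of all genes 0.0030. The direct comparison of ATEV with DNase-treated ATEV called 0 members in edgeR, limma-voom and DESeq2 and 1.46% of all genes in edgeR; Socs1 and Socs3 had an unadjusted p under 0.05 (15.2% of all genes), and Socs1 alone stood apart, higher with ATEV (10.1%). ATEV against NTEV likewise gave 0 members with all 3 tools and 0.935% of all genes in edgeR. Usp18 had an unadjusted p under 0.05 (1.60 ± 0.53, SE, adjusted p = 0.220; 13.4% of all genes), Socs1 stood higher without overlap (8.61%) and Jak1 lower (7.16%). The 3 comparisons with PBS share the PBS libraries, and 3 of the 5 comparisons share the ATEV libraries.

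**Figure D3:**
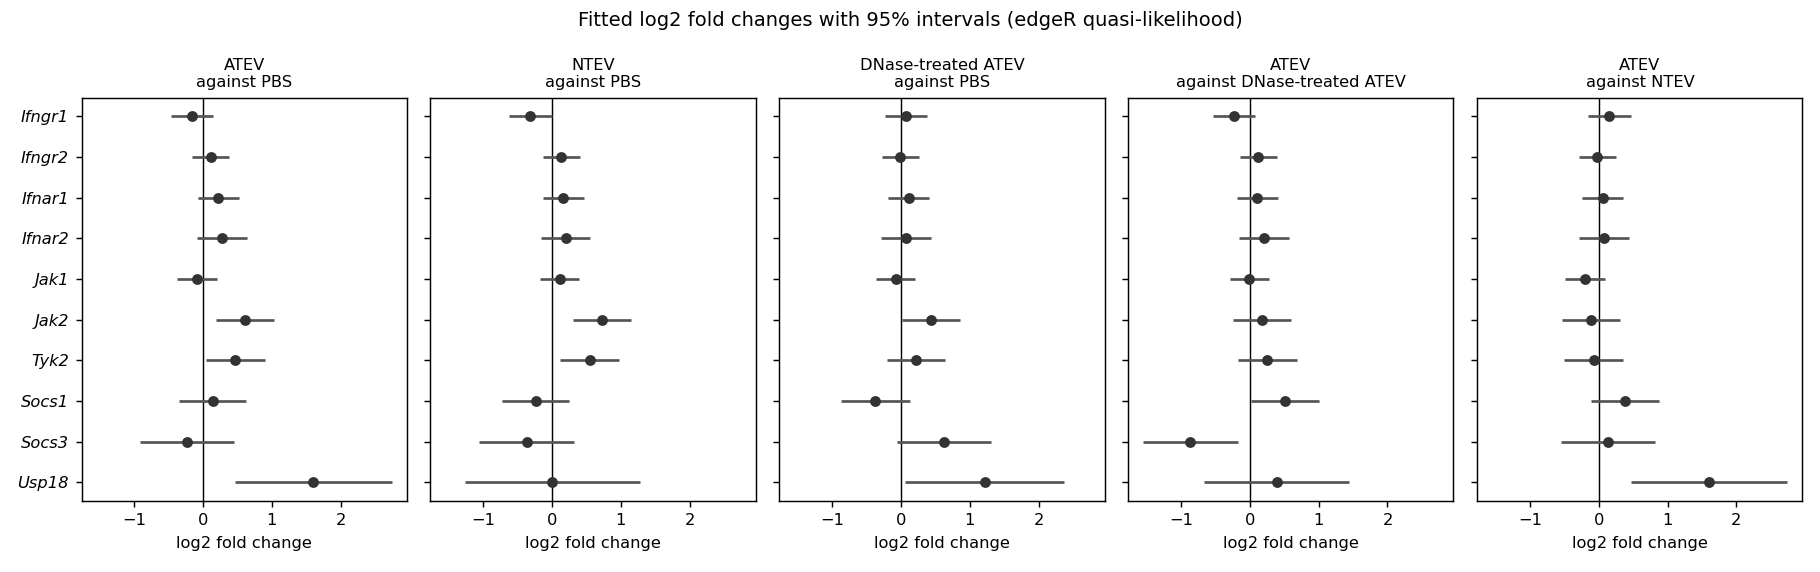
Fitted log2 fold change (point) and 95% interval (line) of the 10 genes in the 5 comparisons, on 1 shared axis. Intervals of the 4 receptor chains run from -0.63 to 0.63 over all comparisons, and only that of Ifngr1 with NTEV against PBS (-0.63 to -0.0038) leaves out 0. That of Usp18 with ATEV against PBS runs from 0.46 to 2.75.

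Other genes of the pathway were read from lists by role. Hardly any ligand transcript was counted: of 21 interferon genes, 19, Ifng and Ifnb1 among them, had 0 counts in all 12 libraries, and Ifnk and Ifnz had 2 and 1 counts in total. A count of 0 allows up to 3 counts in a library, counting error only. How reads shared by the near-identical Ifna copies were counted is not stated, so those zeros are uncertain.

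Of 8 STAT and IRF factors reported here, 7 were tested. With ATEV against PBS, 3 of the 7 rose and none fell, where 3.32% of all genes were called higher and 1.42% lower. The median log2 fold change of the 7 was 0.30, against 0.03 for all genes. Whether these factors differed as a set from the receptors and kinases was not tested. Irf1, a transcription factor induced early by interferon gamma, rose from 17.3 ± 9.76 to 123 ± 3.52 CPM (SD, n = 3; log2 fold change 2.83 ± 0.37 SE, adjusted p = 7.86e-04, edgeR). Irf9, the DNA-binding subunit of the type I interferon factor complex, rose from 10.6 ± 2.47 to 29.0 ± 3.75 CPM (1.45 ± 0.23, adjusted p = 0.00293), and Stat2, a further subunit, from 18.7 ± 4.79 to 44.4 ± 6.58 CPM (1.25 ± 0.29, adjusted p = 0.0300). The call of Stat2 did not hold when any of 4 libraries was left out, replicates 1 and 2 of PBS and replicates 2 and 3 of ATEV (highest adjusted p = 0.126). Irf1 was also higher with ATEV than with DNase-treated ATEV (2.21, adjusted p = 0.00565), a comparison where 1.32% of all genes were called higher. Irf9 stood at 0.89 ± 0.22 there and did not pass (adjusted p = 0.0772, edgeR). DESeq2 called 3 of the 7 factors (495 of all genes) where edgeR called 1 (194 of all genes). Irf1 (2.86) and Irf9 (1.28) were higher than with NTEV, where 0.875% of all genes were called higher and 0.0603% lower. The calls of Irf1 in these 3 comparisons and of Irf9 against PBS held whichever single library was left out, whereas Irf9 against NTEV was lost without NTEV replicate 3 (adjusted p = 0.0815) and in the fit of those 2 groups alone. None of the 7 passed in the main edgeR fit, DESeq2 or limma-voom for NTEV or DNase-treated ATEV against PBS. There, 2 and 1 had an unadjusted p under 0.05, beside 19.1% and 5.96% of all genes. For NTEV, edgeR called 1 factor without the filter on low counts (876 of all genes) and 2 without NTEV replicate 1 (1685 of all genes).

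The ISG15 machinery, which attaches the modifier that USP18 removes, rose in 3 of 4 genes with ATEV against PBS. There, 3.32% of all genes were called higher. Isg15 rose by 2.04, its activating enzyme Uba7 by 1.48 and the conjugating enzyme Ube2l6 by 0.94. Herc6, the mouse ligase, stood at 0.38 ± 0.27 (SE) and did not pass. The call of Uba7 did not hold when any of 4 libraries was left out, replicates 1 and 2 of PBS and replicates 2 and 3 of ATEV (highest adjusted p = 0.106, edgeR). Isg15 was higher with ATEV than with DNase-treated ATEV (1.68, adjusted p = 0.00996, edgeR), where 1.32% of all genes were called higher. This call was lost when ATEV replicate 3 or replicate 2 or 3 of the DNase-treated group was left out (highest adjusted p = 0.0810). Against NTEV, Isg15 (1.66) and Ube2l6 (0.81) were higher with ATEV, beside 0.875% of all genes called higher. Both calls rested on single libraries (adjusted p up to 0.107 and 0.153 in edgeR when 1 was left out).

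Of Jak3 and the other receptor chains that use these kinases, 19 in all, 16 were tested. With ATEV against PBS 1 rose and 1 fell, beside 3.32% of all genes called higher and 1.42% lower. Il12rb1, a receptor chain for interleukins 12 and 23 that holds TYK2, rose from 1.62 ± 0.111 to 8.42 ± 1.10 CPM (SD, n = 3; 2.38 ± 0.23 SE, adjusted p = 9.74e-05, edgeR) and was also higher than with DNase-treated ATEV (2.38) and NTEV (adjusted p = 4.15e-04), whichever library was left out. Il6ra, the interleukin-6 binding chain, fell by 0.63 (adjusted p = 0.0393), a call lost with any of 5 single libraries left out (adjusted p up to 0.138). Il21r, named after its values were seen, was lower with NTEV than with PBS (-2.75, adjusted p = 0.0494) and ATEV (adjusted p = 0.0259) on 2 to 3 counts per NTEV library, calls that single libraries removed. In that comparison with PBS, 1.7% of all genes were called higher with NTEV and 0.611% lower. The 16 other inhibitors were the remaining genes of the SOCS family, PIAS proteins, phosphatases and Sh2b3. With the filter and all libraries, edgeR called none of the 16 in any of the 5 comparisons. With ATEV against PBS 2 of the 16 had an unadjusted p under 0.05, beside 26.8% of all genes; DESeq2 called 1 (1538 of all genes), limma-voom 0 and edgeR without the filter on low counts 1. With NTEV against PBS edgeR called 1 without that filter (876 of all genes) and 1 without NTEV replicate 1 (1685 of all genes). It called 2 without the NTEV and DNase-treated libraries numbered 1 (2254 of all genes). The 16 genes' median with ATEV against PBS was 0.03, as for all genes.

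**Figure D4:**
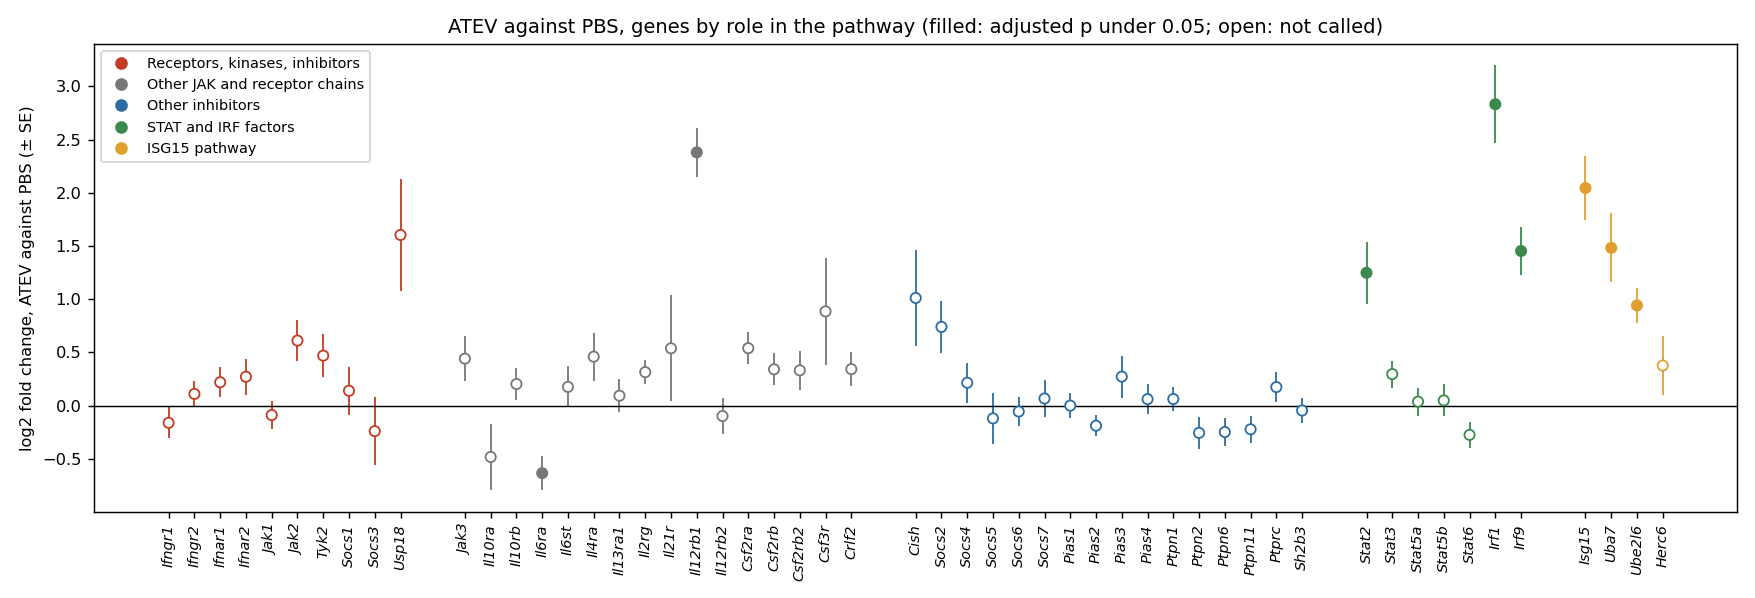
Log2 fold change ± SE with ATEV against PBS for the 10 genes and the tested genes of 4 pathway lists; filled points passed an adjusted p under 0.05. Irf1 (2.83), Il12rb1 (2.38) and Isg15 (2.04) are filled and stand above 2, whereas all receptor, kinase and inhibitor points at the left are open.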

How the data were processed

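Expression was measured by stranded mRNA sequencing of 12 libraries. The authors deposited whole-number counts per Ensembl gene, with no normalization visible in the values. Tools listed in the submitters' processing notes are bcl2fastq 2.19, Cufflinks 2.1.1 and TopHat2 2.0.11, with build mm9. The read counter, annotation and strand setting are not given in the sources used here. Reads of overlapping genes therefore cannot be told apart: antisense for Tyk2 (1700084C06Rik, 26 counts in all), Usp18 (Gm44148, 29) and Jak1 (Raver2, 0), and on the same strand for Ifnar2 (Gm21970, 0). Symbols came from GENCODE M21 (42250 of 42687 identifiers matched), exon lengths from the same release, and promoter windows from RefSeq, both on GRCm38.

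The main analysis used edgeR 4.0.16 (R 4.3.3) with filterByExpr (minimum count 10, minimum total 15), TMM scaling and a quasi-likelihood fit of 1 mean per group to all 12 libraries, whose counts differ between replicates by more than counting noise. Adjusted p-values are Benjamini-Hochberg over 13261 genes within a comparison, two-sided, called under 0.05. Alternatives were DESeq2 1.42.0, limma-voom (limma 3.58.1), other scalings and filters, fits of the 2 groups compared, a replicate block and leaving out libraries. The scripts were tested on simulated data. The members and lists were chosen with earlier results of these data known. All 10 members are named, other pathway genes by up to 3 called per list, and genes of like profile only for called members, of which there were none. Some listed genes are not reported here and are left out of the list counts.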

Additional observations from a re-analysis of the deposited data

How the results depend on the processing

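Of 690 member values recomputed under the alternatives, 645 kept direction and side of the threshold, 13 became called and 32 changed sign, 28 of these from a fitted size under 0.1 on the log2 scale; the cause was not tested. For ATEV against PBS the count of genes called was 628, against 1317 with no filter on low counts, 1538 by DESeq2, 1440 with the replicate block, 1244 in a fit of the 2 groups compared and 169 to 849 with 1 library left out; members called were 2 with no filter (Jak2, Usp18), 2 by DESeq2 and 1 in the fit of 2 groups (Jak2, adjusted p = 0.0264). For NTEV against PBS, 306 genes became 876 with no filter, 861 by DESeq2, 19 in the fit of 2 groups, 34 to 1685 with 1 library left out and 2254 without the NTEV and DNase-treated libraries numbered 1, a choice made after seeing the data; members called were 2 with no filter, 1 by DESeq2, 0 to 2 with 1 library left out and 2 (Jak2, Tyk2) without both libraries. For DNase-treated ATEV against PBS, 0 genes became 2 with upper quartile scaling, 47 with no filter, 38 by DESeq2, 1 with the replicate block, 0 to 8 with 1 library left out and 19 without both libraries. For ATEV against DNase-treated ATEV, 194 became 394 with no filter (1 member, Socs3), 495 by DESeq2 and 78 to 522 with 1 library left out. For ATEV against NTEV, 124 became 242 with no filter, 373 by DESeq2, 82 in the fit of 2 groups and 70 to 302 with 1 library left out.

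Sign changes with 1 library left out, as the lowest and highest value, were -0.18 and 0.0056 for Jak1 with ATEV against PBS; -0.46 and 0.36 for Usp18 with NTEV against PBS (-0.13 in limma-voom); and, with DNase-treated ATEV against PBS, -0.00085 and 0.21 for Ifngr1, -0.0816 and 0.0567 for Ifngr2, -0.0011 and 0.17 for Ifnar1 and -0.0101 and 0.18 for Ifnar2. Ifngr2 there was also 0.0255 with upper quartile scaling, 0.0065 with no filter, 0.00029 in the fit of 2 groups and 0.0797 without both libraries. With ATEV against DNase-treated ATEV they were -0.0820 and 0.11 for Jak1 (0.0059 with upper quartile scaling, 0.10 without both libraries) and -0.30 and 0.84 for Usp18. With ATEV against NTEV they were -0.10 and 0.0626 for Ifngr2 (0.0073 with upper quartile scaling), -0.0407 and 0.20 for Ifnar1 (-0.0404 without both libraries), -0.0609 and 0.23 for Ifnar2 (-0.0152 without both), -0.30 and 0.13 for Jak2, -0.25 and 0.13 for Tyk2 and -0.0500 and 0.46 for Socs3.

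The replicate numbers of the titles are not stated to pair the libraries, and same-numbered libraries of different groups correlated in their deviations at -0.38 to 0.62 (median 0.03), against -0.54 to 0.44 for other pairs. With the replicate block no member was called in any comparison. Counts of 9 to 74 (Usp18) and 28 to 61 (Socs1) limit the precision for these genes.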
